A study of Rattus norvegicus with 24 samples.

Results

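The step from 1 h to 3 h after an ischemia operation was examined in rat hippocampus as the difference between the 4 arrays taken at 3 h and the 4 arrays taken at 1 h, chosen by the hour in their titles out of 24 arrays in all. The study followed total RNA of the hippocampus, a brain region that is vulnerable to loss of blood flow, on Affymetrix rat genome arrays (U34, set A) through a course of ischemic tolerance. At each hour there is a TOL group, which the labels call hypoxia tolerant, and a SHAM group, which they call hypoxia sensitive, with 2 arrays each from a 1st and a 2nd experiment. The groups used here are therefore TOL at 3 h, SHAM at 3 h, TOL at 1 h and SHAM at 1 h, and the 0 h arrays of both arms are quoted for reference only. Every group carries the operation, so no unoperated tissue enters the step. The labels used here state neither strain, age and sex, nor how tolerance was induced, nor whether an array holds 1 animal or a pool. Nothing in the labels ties replicate arrays to different animals, and the p-values cover the spread among these arrays alone, and that spread may be technical.

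Immediate early genes are switched on by neuronal activity, calcium entry and stress without the need for new protein, and their mRNAs are usually short-lived. Many encode transcription factors (the Fos, Jun, Egr, Nr4a and Klf families) or inhibitors of the kinases that turned them on (the Dusp phosphatases), and a slower set encodes synaptic and secreted effectors such as Arc and Homer1. In the hippocampus they are widely used as markers of recent activity, seizure and ischemia.

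Levels are quantile-normalised intensities in array units, and values at or under 41.2 units, the noise level, were not told apart from background. A log2 difference is the 3 h mean minus the 1 h mean over both arms, with 4 arrays per hour. The value after ± is limma's moderated standard error, with the spread pooled over the groups of all 24 arrays. A call means a Benjamini-Hochberg adjusted p under 0.05 in limma's moderated test over the 5299 probe sets tested. The deposited medians of the 8 arrays were 62.5 to 73.4 units at 3 h and 59.9 to 77.2 units at 1 h, 22.8% to 24.5% of deposited values at 3 h and 23.3% to 23.9% at 1 h lay at or below 0, and replicates correlated at 0.964 to 0.973 at 3 h and 0.974 to 0.975 at 1 h. The defining markers of neurons (7 of 7 measured), astrocytes (6 of 6) and oligodendrocytes (5 of 5) were above noise on all 8 arrays. The arrays were processed in batches inferred from recorded times: both TOL arrays of 3 h shared a run, and both TOL arrays of 1 h shared another, so in TOL the step and the run cannot be told apart. In SHAM both 3 h arrays and 1 h replicate 2 shared a run, and 1 h replicate 1 was in a different one.

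Between 1 h and 3 h, 22 probe sets fell and 10 rose over both arms, which is 0.415% and 0.189% of those tested. These calls rest on a spread that includes arrays of other hours. In a fit of the 8 arrays alone, 0 probe sets passed in either direction (smallest limma adjusted p 0.0812). Its estimates of the step equal those of the main fit by design, so the direction of the 22 falls and 10 rises could not change there. Without normalisation, 15 of the 22 falls and 0 of the 10 rises were still called. The 22 and the 10 of the main fit are described below. The falls included the early transcription factors Fos, Klf4, Nr4a1, Egr2 and Junb and the kinase phosphatase Dusp1, with fitted falls of 1.79 to 4.92-fold. The rises included Ptgs2, the inducible cyclooxygenase that makes prostaglandins, the early repressor Klf10 and the receptor-like kinase Ryk, at 1.71 to 2.29-fold. The 22 falling probe sets held 11 genes with a single symbol and 6 probe sets without one, and the 10 rising probe sets held 7 such genes and 3 without. With each gene represented by its brightest probe set, 7 of 3224 genes fell and 7 rose, 0.217% in each direction. The groups did not overlap over all 8 arrays for 52 genes that were lower (1.61%) and 39 that were higher (1.21%) at 3 h. For a gene that was not called, such a separation is a description only. With single arrays left out, the falls numbered 15 to 35, with 35 without SHAM 3 h replicate 1. The rises numbered 3 to 23, with 3 without either SHAM 1 h array, 4 without TOL 3 h replicate 1, 16 without TOL 1 h replicate 1, 17 without SHAM 3 h replicate 1 and 23 without TOL 3 h replicate 2. In this bulk tissue, a loss of cells of a type and a loss of RNA per cell cannot be told apart.

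**Figure D1:**
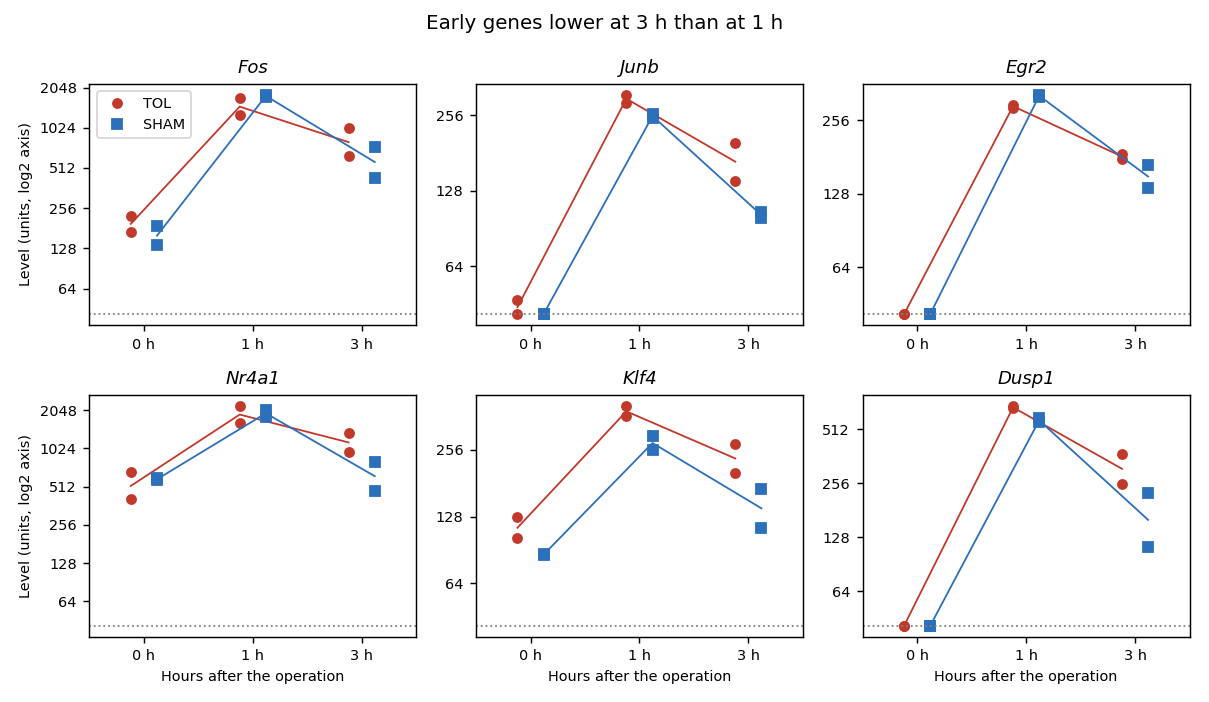
Level in array units (log2 axis) of 6 genes that fell, on each array at 0 h, 1 h and 3 h after the operation, with circles for TOL, squares for SHAM, lines through the arm means and a dotted line at the noise level of 41.2 units, where lower values are drawn. Fos is shown by its brightest probe set, X06769cds_g_at, and its 3 h arrays, at 435 to 1022 units, sit below the 1 h arrays and above the 0 h arrays.

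Fos, a subunit of the AP-1 transcription factor, gave the largest fitted fall of any named gene. Its X06769cds_at probe set read 75.1 and 200.0 units in TOL and 88.8 and 67.4 units in SHAM at 3 h, against 490.1 and 306 units in TOL and 600.3 and 586 units in SHAM at 1 h. All 3 h arrays lay below all 1 h arrays, and the highest 3 h array and the lowest 1 h array were both of TOL. The log2 difference was -2.30 ± 0.22 (limma adjusted p = 6.6973e-05), a 4.92-fold fall. The same probe set was below noise on all 0 h arrays, at -7.61 to 9.93 units, so at 3 h it had not returned to that level. The brightest Fos probe set, X06769cds_g_at, read 626 and 1022 units in TOL and 435 and 741 units in SHAM at 3 h, against 1708 and 1276 units in TOL and 1738 and 1816 units in SHAM at 1 h. Its fall was smaller, at -1.27 ± 0.23 (adjusted p = 0.014), and this call was lost in 5 of the 8 fits that leave out 1 array (highest adjusted p 0.0995): without either SHAM 1 h array, SHAM 3 h replicate 1, TOL 1 h replicate 1 or TOL 3 h replicate 1. A further Fos probe set, X03347cds_g_at, fell by 1.05 ± 0.16 on the log2 scale (adjusted p = 0.00405). X06769cds_at and X03347cds_g_at kept their calls in all 8 such fits.

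Other AP-1 subunits were less uniform. Junb read 140.4 and 199.5 units in TOL and 106 and 99.3 units in SHAM at 3 h on X54686cds_at, against 310.2 and 288 units in TOL and 250.1 and 259 units in SHAM at 1 h. The hours did not overlap, and the fall was -1.08 ± 0.18 (limma adjusted p = 0.00697). The brighter Junb probe set, rc_AA891041_at, also separated the hours but was not called, at -0.82 ± 0.24 (adjusted p = 0.231), so the probe sets differ in their call. The X54686cds_at call was lost without TOL 3 h replicate 1, at an adjusted p of 0.0521. Jun, the partner that Fos usually binds, read 1216 and 774 units in TOL and 822 and 829 units in SHAM at 3 h, against 1220.3 and 1234 units in TOL and 932 and 883 units in SHAM at 1 h. The hours overlapped through TOL 3 h replicate 1, and the difference of -0.24 ± 0.14 did not pass (adjusted p = 0.772). Both hours stood above the 142 to 207 units of 0 h. Atf3, a stress-induced member, differed by -0.16 ± 0.13 (adjusted p = 0.864). Of the 5 AP-1 genes tested, Fos was the one called on its brightest probe set, beside falls in 0.217% of all 3224 genes. Hours separate downward were seen in 2 of the 5, beside 1.61% of all genes. The list's median difference was -0.24, beside -0.0030 over all genes.

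Of the Egr and Nr4a factors, 2 of 7 tested genes fell on their brightest probe sets, Egr2 and Nr4a1, and none rose. Over all genes tested, 0.217% fell. Hours separate downward were seen in 3 of the 7, beside 1.61% of all genes. The median of the list was -0.50. Egr2, a zinc-finger factor that responds to growth factors and activity, read 185 and 178 units in TOL and 135 and 168 units in SHAM at 3 h, against 297 and 287 units in TOL and 326 and 319 units in SHAM at 1 h. Replicates differed little, the hours did not overlap, and the fall was -0.89 ± 0.11 (limma adjusted p = 3.9142e-04). Nr4a1, an orphan nuclear receptor, read 961 and 1357 units in TOL and 476 and 806 units in SHAM at 3 h on U17254_g_at, against 2201 and 1629 units in TOL and 2071 and 1813 units in SHAM at 1 h. The hours were separate, with a difference of -1.19 ± 0.19 (adjusted p = 0.00672). This call was lost without TOL 3 h replicate 1 (adjusted p 0.0518), while the second Nr4a1 probe set, U17254_at, at -0.84 ± 0.10 (adjusted p = 3.9142e-04), kept its call without any single array.

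The related Nr4a3 fell on X86003_at, at 102 and 107 units in TOL and 100.1 and 88.0 units in SHAM at 3 h, against 165 and 146 units in TOL and 175 and 172 units in SHAM at 1 h. Its 0 h arrays held 101 to 142 units, so the 3 h arrays lay on both sides of the lowest 0 h value. The difference was -0.73 ± 0.12 (limma adjusted p = 0.00697), but the brighter Nr4a3 probe set, rc_AI176710_at, was not called, at -0.50 ± 0.13 (adjusted p = 0.162). Nr4a2 was not called either, at -0.35 ± 0.13 (adjusted p = 0.439).

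Egr1 was the brightest of the family and turned on 1 array. It read 4763 and 4157 units in TOL and 4076 and 1160.1 units in SHAM at 3 h, against 5651 and 5224 units in TOL and 6812 and 6258 units in SHAM at 1 h. All 3 h arrays lay below all 1 h arrays, and SHAM 3 h replicate 2 was the lowest, below the 2005 units that were the least at 0 h. The difference of -0.94 ± 0.26 did not pass (limma adjusted p = 0.210). Without SHAM 3 h replicate 1, the array nearer to the others, it was -1.39 with an adjusted p of 3.2364e-05, a fit in which the lone SHAM 3 h array is the low one. Without that low array it was -0.48 (adjusted p = 0.180), and the other 3 Egr1 probe sets differed by -0.36 to -0.48 and were not called. Egr3 and Egr4 differed by 0.01 ± 0.10 and -0.11 ± 0.12 and were not called.

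Klf4, a Krüppel-like factor, gave the smallest p of the step. On L26292_g_at it read 62.5 and 108 units in TOL and 17.3 and 51.8 units in SHAM at 3 h, against 238 and 187 units in TOL and 219 and 165 units in SHAM at 1 h. The hours were far apart, SHAM 3 h replicate 1 was below noise, and all 0 h arrays were below noise at 19.3 to 27.3 units. The fall was -1.70 ± 0.15, or 3.25-fold (limma adjusted p = 4.3942e-05), and it was called without any single array. The brighter L26292_at fell by 0.84 ± 0.15 (adjusted p = 0.0165), with overlap between the 272 units of TOL 3 h replicate 2 and the 255 units of SHAM 1 h replicate 2, and this call was lost in 4 of the 8 fits that leave out 1 array (highest adjusted p 0.110): without SHAM 1 h replicate 1, SHAM 3 h replicate 1, TOL 1 h replicate 1 or TOL 3 h replicate 1.

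The phosphatases that end MAP kinase signalling did not move together. Dusp1, which dephosphorylates MAP kinases in the nucleus, read 255 and 374 units in TOL and 227 and 113 units in SHAM at 3 h on U02553cds_s_at, against 689 and 670.2 units in TOL and 560.1 and 591 units in SHAM at 1 h. Every 3 h array was below every 1 h array and above the 0 h arrays, which were all below noise. The fall was -1.49 ± 0.20 (limma adjusted p = 9.0280e-04). S74351_s_at fell by 1.91 ± 0.31 (adjusted p = 0.0065) and lost its call without TOL 3 h replicate 1 (adjusted p 0.0518). The brightest, S81478_s_at, read 473 and 663 units in TOL and 339.6 and 382 units in SHAM at 3 h, against 1188 and 1083 units in TOL and 799 and 992 units in SHAM at 1 h. It separated the hours too, at -1.16 ± 0.26, but just missed the threshold (adjusted p = 0.0636), so none of the 3 phosphatase genes was called on its brightest probe set. Hours separate downward were seen in 1 of the 3, beside 1.61% of all genes. Dusp5 and Dusp6, which act on ERK, differed by 0.36 ± 0.14 and 0.38 ± 0.14 and were not called (adjusted p = 0.479 and 0.413).

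Promoters of genes that fell and of 1 gene that rose are printed because the early genes are textbook targets of CREB and SRF and the motif of each is a short word that can be looked for. RefSeq (assembly GRCr8) gave a promoter of 300 bases, 250 before the start to 50 after it, for 8 of the 11 falling genes and 6 of the 7 rising ones. Fos, Nr4a3, Ntrk2 and Klf10 were not matched. Each line gives the 150 bases before the start, 5′ to 3′ on the gene's strand, at chr10:17184703-17184852 (plus) for Dusp1, chr20:21054442-21054591 (minus) for Egr2, chr7:134259988-134260137 (plus) for Nr4a1 and chr13:64713913-64714062 (plus) for Ptgs2. Capitals mark the cAMP response element TGACGTCA in Dusp1, 124 bases before the start, and the CArG box in Egr2, 83 bases before the start.
Dusp1: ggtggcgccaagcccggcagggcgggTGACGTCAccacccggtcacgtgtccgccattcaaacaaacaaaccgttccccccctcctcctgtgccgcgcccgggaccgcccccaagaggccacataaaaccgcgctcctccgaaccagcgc
Egr2: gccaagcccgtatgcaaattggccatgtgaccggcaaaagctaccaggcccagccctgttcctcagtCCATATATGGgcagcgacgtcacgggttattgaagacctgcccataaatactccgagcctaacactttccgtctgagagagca
Nr4a1: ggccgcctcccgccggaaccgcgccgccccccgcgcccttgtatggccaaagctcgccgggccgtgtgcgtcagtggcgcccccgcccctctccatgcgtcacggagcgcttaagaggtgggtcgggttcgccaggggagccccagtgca
Ptgs2: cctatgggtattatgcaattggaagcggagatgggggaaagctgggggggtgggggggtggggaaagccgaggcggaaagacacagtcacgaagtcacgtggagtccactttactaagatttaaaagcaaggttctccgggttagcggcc

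Searched on both strands of the 300 bases, TGACGTCA was found in 1 of the 8 falling promoters, 0 of the 6 rising ones and 1.83% of all 33469 promoters in the table. The CArG box was found in 1 of 8 and 0 of 6, beside 1.66% for genes tested and 1.64% of all. Neither the AP-1 word TGAGTCA (4.63% of all promoters), the Egr word GCGTGGGCG (0.544%) nor the Nr4a word AAAGGTCA (1.43%) was found in any of the 14. For genes tested these shares were 3.92%, 0.936% and 0.901%. No motif overlapped another in the lines shown, and a match describes letters in a window, not a bound site.

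The remaining falls were of mixed function. Ntrk2, the receptor of brain-derived neurotrophic factor, read 37.1 and 39.4 units in TOL and 34.5 and 33.6 units in SHAM at 3 h on M55293_at, against 109 and 62.9 units in TOL and 93.4 and 98.0 units in SHAM at 1 h. It was not above noise on any 3 h array, so it was at least 2.16-fold lower (limma adjusted p = 3.9142e-04). The brightest Ntrk2 probe set, M55291_at, read 429.5 to 483 units at 3 h and 384 to 514 units at 1 h and was not called (0.09, adjusted p = 0.943), so the probe sets disagree. Pnpla7, a lysophospholipase, was likewise below noise at 3 h, at 24.6 to 36.5 units against 49.8 to 62.9 units at 1 h, at least 1.40-fold lower (adjusted p = 0.00523). Its 0 h arrays held 24.9 to 46.4 units.

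Tuba4a, an alpha-tubulin, read 715 and 733 units in TOL and 603 and 527 units in SHAM at 3 h, against 877 and 839 units in TOL and 920.5 and 841 units in SHAM at 1 h. Its fall of -0.44 ± 0.08 (limma adjusted p = 0.0126) took all 3 h arrays below the 861 units that were the lowest at 0 h. Crybb3, a lens crystallin by name, read 65.0 and 84.6 units in TOL and 28.8 and 28.4 units in SHAM at 3 h, against 133 and 94.2 units in TOL and 127 and 136 units in SHAM at 1 h. Both SHAM arrays of 3 h were below noise, and the fall of -1.13 ± 0.23 (adjusted p = 0.0392) was called in 1 of the 8 fits that leave out 1 array, with a highest adjusted p of 0.213. The Tuba4a call held in 5 of the 8, with a highest adjusted p of 0.0545.

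Probe sets with no gene name in the annotation were among the steepest falls and were picked out after their values were seen. AF030088UTR#1_at read 70.4 and 78.8 units in TOL and 95.8 and 52.8 units in SHAM at 3 h, against 241 and 199 units in TOL and 433 and 400.2 units in SHAM at 1 h, a difference of -2.05 ± 0.20 (limma adjusted p = 6.6973e-05). M60921_g_at read 55.0 and 123 units in TOL and 27.6 and 68.5 units in SHAM at 3 h, against 325 and 222 units in TOL and 351 and 283 units in SHAM at 1 h, a difference of -2.14 ± 0.29 (adjusted p = 0.0011). Both separated the hours and kept their calls without any single array.

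Against 0 h the falls differed in how far they had gone by 3 h. In 19 of the 22 falling probe sets all 1 h arrays of both arms lay above all 0 h arrays, beside 96 of all 3224 genes (2.98%). The 22 were picked for 1 h levels above those of 3 h on these same arrays. That choice favours a high 1 h, so the 0 h counts describe them and test nothing. At 3 h all arrays were still above all 0 h arrays in 8 of the 22, some but not all of them in 6, and none in 8. The 3 h mean was above every 0 h array in 14, within their range in 5 and below it in 3. A switch from above noise on all 4 arrays of 1 h to noise on all 4 arrays of 3 h was seen in 6 probe sets, of which the Ntrk2 and Pnpla7 ones were called. The other 4, chosen after their values were seen, were Akap5, Il1b, an Nr3c1 probe set and rc_AI639385_at, none called. Il1b, the interleukin-1 beta cytokine, was close to the limit at both hours, with 32.5 to 40.5 units at 3 h and 41.8 to 46.5 units at 1 h. No probe set switched the other way, and 4337 of 5299 were above noise on all 8 arrays.

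Of the rises, 1 kept its call in every fit that leaves out 1 array. Ryk, a Wnt receptor with a kinase-like domain, read 154 and 115 units in TOL and 104 and 112 units in SHAM at 3 h, against 55.2 and 72.2 units in TOL and 74.5 and 54.4 units in SHAM at 1 h. The hours did not overlap, the rise was 0.92 ± 0.13 (limma adjusted p = 0.00193), and Ryk was that gene. The 0 h arrays held 63.2 to 96.3 units, below every 3 h array and overlapping 1 h. The other 9 rising probe sets were each called in 0 to 3 of the 8 fits that leave out 1 array.

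Klf10, a repressor induced early by TGF-beta, read 406 and 244 units in TOL and 488 and 475 units in SHAM at 3 h, against 113 and 249 units in TOL and 190.2 and 158 units in SHAM at 1 h. The hours overlapped, since TOL 3 h replicate 2 lay just below TOL 1 h replicate 2, and the rise over the 4 arrays was 1.19 ± 0.24, or 2.29-fold (limma adjusted p = 0.0392). All 3 h arrays were above the 76.8 to 130.4 units of 0 h. The dimmer Klf10 probe set, rc_AI071299_at, was not called, at 0.59 ± 0.20 (adjusted p = 0.370).

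Ptgs2 read 409 and 293 units in TOL and 826 and 581 units in SHAM at 3 h, against 266 and 277 units in TOL and 328 and 280.2 units in SHAM at 1 h. TOL 3 h replicate 2 fell among the 1 h arrays, and both SHAM arrays of 3 h stood above everything else. The rise was 0.77 ± 0.15 (limma adjusted p = 0.0259) over both arms, 0.35 in TOL and 1.19 in SHAM. It was the single rise called within SHAM (adjusted p = 0.0144). The difference between the arms had an unadjusted p of 0.0118 and did not pass adjustment. The other Ptgs2 probe set, L25925_s_at, was not called, at 0.50 (adjusted p = 0.509).

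**Figure D2:**
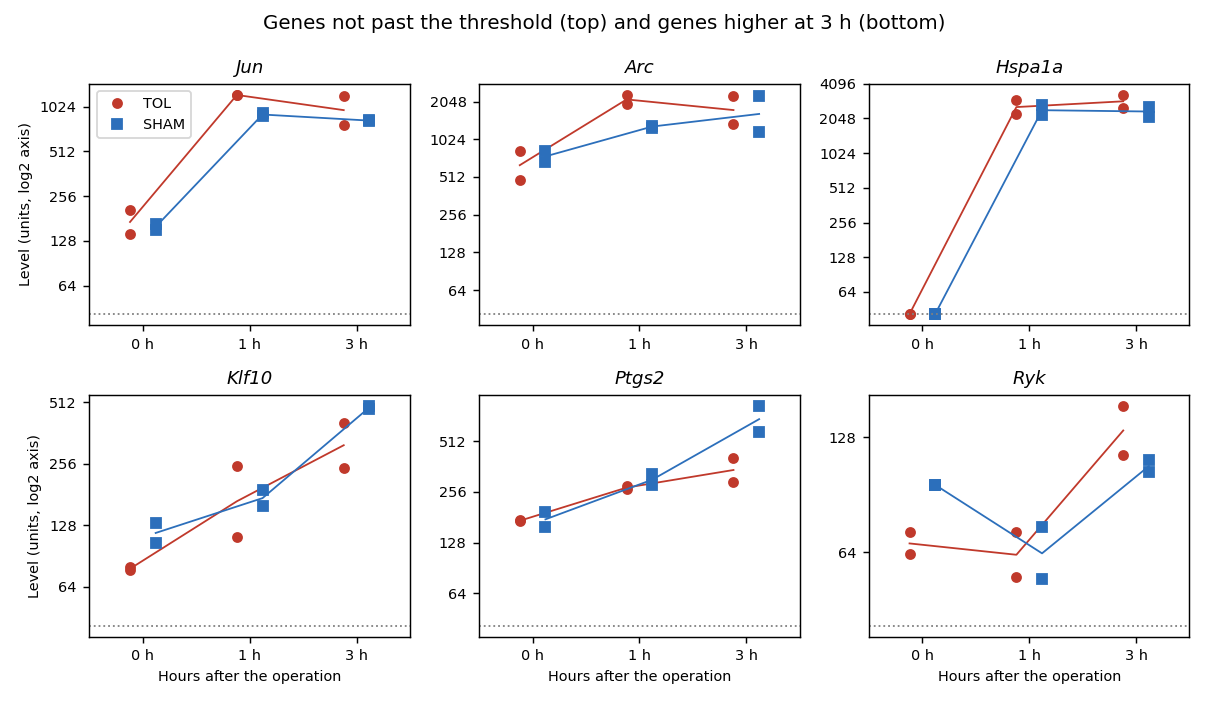
Level in array units (log2 axis) on each array at 0 h, 1 h and 3 h for genes whose step missed the threshold (top) and genes that rose (bottom), with circles for TOL, squares for SHAM, lines through the arm means and a dotted line at the noise level. Hspa1a lies between 2126 and 3292 units at both 3 h and 1 h, and the 3 h arrays of Ryk lie above all its 1 h arrays.

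Wsb2, a substrate adaptor of ubiquitin ligases, read 767 and 766 units in TOL and 229.9 and 330.2 units in SHAM at 3 h, against 337 and 224 units in TOL and 209.6 and 93.5 units in SHAM at 1 h. It rose by 1.23 ± 0.26 (limma adjusted p = 0.0430) with the SHAM arrays of 3 h inside the range of 1 h. Of the genes of RNA processing, Ddx39a, an RNA helicase of mRNA export, read 97.1 and 111 units in TOL and 77.9 and 132 units in SHAM at 3 h, against 68.5 and 14.0 units in TOL and 59.8 and 50.7 units in SHAM at 1 h, with TOL 1 h replicate 2 below noise. Papola, the canonical poly(A) polymerase, read 265 and 213 units in TOL and 326 and 292 units in SHAM at 3 h, against 191 and 168 units in TOL and 222 and 213 units in SHAM at 1 h. Their rises were 0.92 ± 0.19 and 0.46 ± 0.09 (adjusted p = 0.0430 and 0.0338), the Ddx39a hours apart and the Papola hours overlapping.

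Azi2, an adaptor of TBK1 signalling, read 78.4 to 102 units at 3 h and 50.2 to 80.2 units at 1 h, with the hours overlapping by 1 array, and rose by 0.53 ± 0.11 (limma adjusted p = 0.0392). The brightest riser, M11794cds#2_f_at, has no gene name in the annotation and was picked out after its values were seen. It read 4975 and 3188 units in TOL and 3609.7 and 4218 units in SHAM at 3 h, against 1903 and 2664 units in TOL and 1725 and 1754 units in SHAM at 1 h. Each hour stood above the one before, with 561 to 839 units at 0 h, and the rise was 0.99 ± 0.20 (adjusted p = 0.0381). In the 10 rising probe sets together, all 3 h arrays lay above all 0 h arrays in 5. Their 1 h mean was within the 0 h range in 5, above it in 3 and below it in 2. The 10 were picked for 3 h levels above those of 1 h on these same arrays, so these counts test nothing.

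On their brightest probe sets, most of the early genes did not pass the test of the step in either direction. Of the 85 genes tested in the 6 lists of early and stress genes, 28 (32.9%) had all 1 h arrays above all 0 h arrays, beside 96 of all 3224 genes (2.98%). Of these 28, counted by brightest probe set, 4 were called lower at 3 h and 23 were not called. Junb, Dusp1 and Nr4a3 are among the 23, though dimmer probe sets of each were called lower. In 19 of the 28 all 3 h arrays were also above all 0 h arrays. Of the 96 over all genes, 5 were called lower and 55 were also above 0 h at 3 h. A further 14 of the 85 (16.5%) stood above 0 h on all 3 h arrays but not on all 1 h arrays, beside 82 of all 3224 genes (2.54%). These comparisons with 0 h are counts without a test. The lists were chosen with earlier results of these data known, which can raise their shares over those of all genes.

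Among the activity-regulated effectors, 1 of 25 tested genes rose (Ptgs2) and 0 fell, beside 0.217% of all genes in each direction. The median difference was -0.04. Arc, a synaptic protein whose mRNA travels to dendrites, read 2271 and 1351 units in TOL and 2256 and 1179 units in SHAM at 3 h, against 2327 and 1949 units in TOL and 1318 and 1271 units in SHAM at 1 h. The hours overlapped widely in both arms, at 0.03 ± 0.23 (limma adjusted p = 0.997), and all 8 arrays were above the 488 to 829 units of 0 h. Homer1, a scaffold of postsynaptic receptors, read 607 and 505 units in TOL and 1399 and 1063 units in SHAM at 3 h on its brightest probe set, against 429 and 626 units in TOL and 500.5 and 636 units in SHAM at 1 h. Only the SHAM arrays of 3 h stood apart, and the difference of 0.60 ± 0.18 was not called (adjusted p = 0.268). Nptx2, a secreted organiser of excitatory synapses, differed by 0.51 ± 0.18 (adjusted p = 0.410) and Bdnf, the neurotrophin, by 0.14 ± 0.12 (adjusted p = 0.864).

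Of the other early transcription regulators, 1 of 21 fell (Klf4) and 1 rose (Klf10), beside 0.217% of all genes in each direction. The median was -0.05. Id1, an inhibitor of helix-loop-helix factors, and Crem, a cAMP-responsive factor, separated the hours downward without passing, at -0.49 ± 0.16 (limma adjusted p = 0.339) and -0.30 ± 0.17 (adjusted p = 0.710). Btg1, an antiproliferative factor, did the same at -0.25 ± 0.07 (adjusted p = 0.233). These were 3 of the 21 genes, beside 1.61% of all genes with hours separate downward. Nfkbia, the inhibitor of NF-kappaB, differed by -0.08 ± 0.26 (adjusted p = 0.997).

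None of the 24 heat shock genes and chaperones tested was called, and the median difference was 0.18, with 19 above 0 and 5 below, while of all genes 1576 were above 0 and 1648 below. On the deposited scale, with no normalisation, 14 of 23 were above 0 and the median of all probe sets itself moved by -0.13 in TOL and -0.04 in SHAM. Hspa1a, the inducible Hsp70, read 3292 and 2519 units in TOL and 2595 and 2126 units in SHAM at 3 h, against 2943 and 2239 units in TOL and 2664 and 2183 units in SHAM at 1 h. The hours overlapped, at 0.06 ± 0.11 (limma adjusted p = 0.958), and all 0 h arrays were below noise at 7.63 to 24.9 units. Hsf1, the transcription factor of the heat shock response, read 311 and 358 units in TOL and 375 and 411 units in SHAM at 3 h, against 271 and 272 units in TOL and 229.8 and 245 units in SHAM at 1 h. Its hours were separate, but the difference of 0.51 ± 0.13 did not pass (adjusted p = 0.132). Hours separate upward were seen in 2 of the 24 genes, beside 1.21% of all genes. Hsph1, an Hsp110 nucleotide exchange factor, differed by 0.39 ± 0.11 (adjusted p = 0.231).

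**Figure D3:**
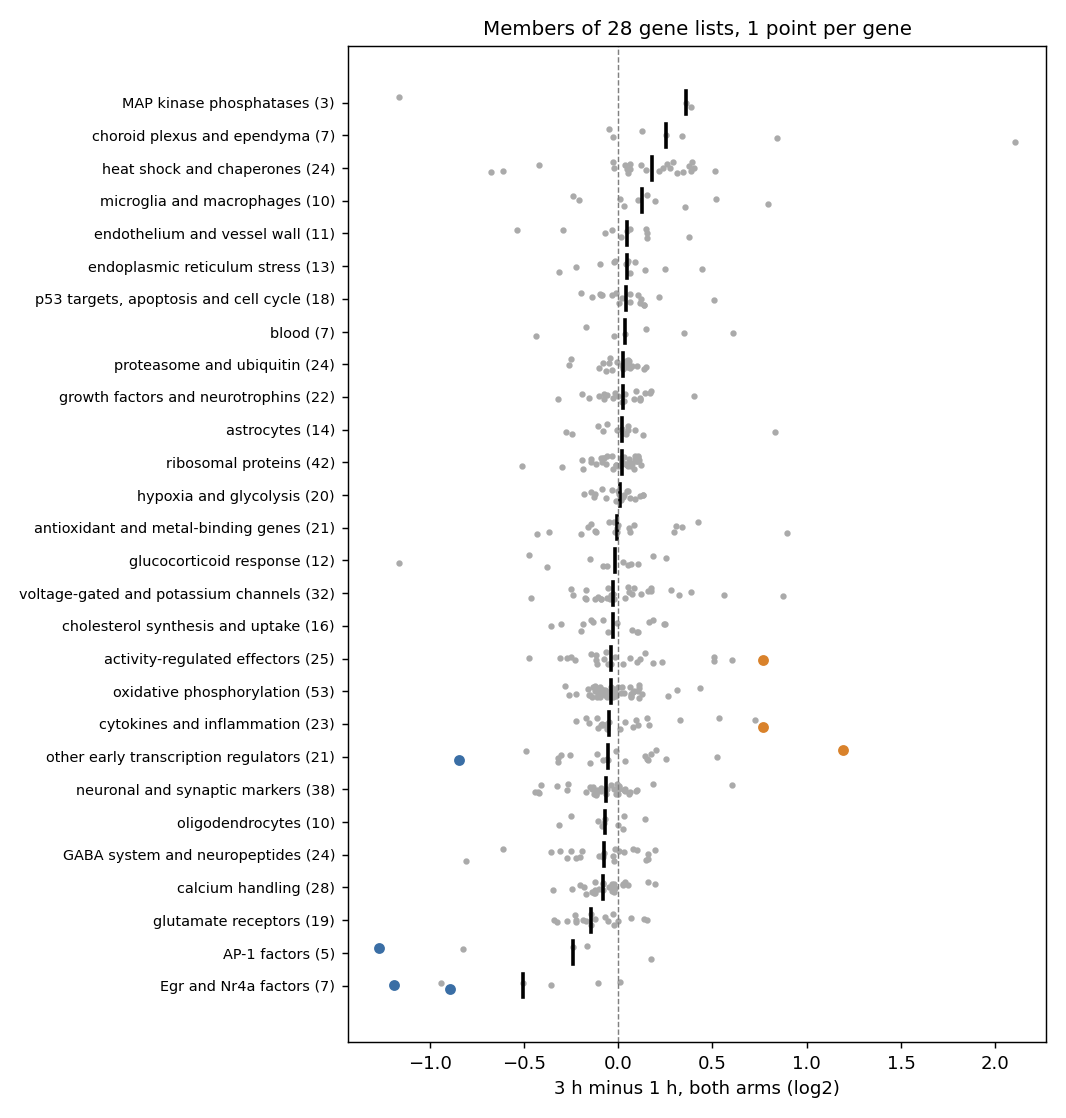
Log2 difference, 3 h minus 1 h over both arms, with 1 point per tested gene of the 28 lists (number of genes in brackets), a bar at each list's median, blue for genes called lower and orange for genes called higher. The Egr and Nr4a factors have the lowest median, -0.50, and most heat shock genes and chaperones sit to the right of 0, with a median of 0.18.

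Beyond the early lists, the other pathway and cell type lists added no further gene to the calls on brightest probe sets. Over all 28 lists, 4 of 508 genes fell and 2 rose, beside 7 of all 3224 genes in each direction (0.217%). All 6 belong to the early lists. Ptgs2 was also counted among 23 genes of cytokines and inflammation, where it was the single call (median -0.05). Of all 3224 genes, 1648 were below 0. Glutamate receptors had a median of -0.14 with 16 of 19 genes below 0 and none called. Gria1, an AMPA receptor subunit, and Grin2a, an NMDA receptor subunit, differed by -0.23 and -0.27 (limma adjusted p = 0.891 and 0.676). Calcium handling had 22 of 28 genes below 0 and a median of -0.08, and the GABA system and neuropeptides had a median of -0.08 over 24 genes. Oxidative phosphorylation (53 genes, median -0.04), ribosomal proteins (42 genes, 0.02), growth factors and neurotrophins (22 genes, 0.02) and endoplasmic reticulum stress (13 genes, 0.05) had no calls on brightest probe sets, while the growth factor list holds the dimmer Ntrk2 probe set called above. Without normalisation the medians of these last 3 lists were below 0, at -0.07, -0.06 and -0.05, so their sign depends on the scaling. The called genes Ryk, Wsb2, Ddx39a, Papola, Azi2, Tuba4a, Pnpla7 and Crybb3 are in none of the lists.

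Markers of other cell types were read beside these values. The summed level of microglial markers was 429.5 to 937 units at 3 h and 356 to 529.7 units at 1 h, with Itgam, Csf1r and Cd74 below noise on all 8 arrays. Neuronal markers summed to 10674 to 11932 units at 3 h and 10870 to 12864 units at 1 h. Choroid plexus markers, which can enter a hippocampal dissection, summed to 3129 to 7428 units at 3 h and 1256 to 3465 units at 1 h. Their main member Ttr, the transthyretin of the choroid plexus, read 5293 and 1943 units in TOL and 5224 and 4577 units in SHAM at 3 h, against 778 and 2244 units in TOL and 2233 and 185 units in SHAM at 1 h, and was not called (2.10 ± 1.02, limma adjusted p = 0.639). Enpp2, another strong choroid plexus marker, read 1494 and 588 units in TOL and 829.7 and 1007 units in SHAM at 3 h, against 523 and 566 units in TOL and 437 and 546 units in SHAM at 1 h. Its hours did not overlap, at 0.84 ± 0.38 (adjusted p = 0.572), and 1.21% of all genes were separate in that direction. The other choroid plexus markers moved little. Igf2 averaged 412 units at 3 h and 420 units at 1 h, and Igfbp2 159 and 138 units. Kcnj13, near the noise level, averaged 42.3 and 39.0 units. The microglial complement gene C1qb averaged 424 units at 3 h and 229 units at 1 h, with overlap (0.80 ± 0.30, adjusted p = 0.479). Of the other microglial markers above noise on all 8 arrays, Ptprc averaged 115 units at 3 h and 101 units at 1 h. Aif1 averaged 76.5 and 70.9 units. No marker gene of any type was called, and the part of choroid plexus or microglial RNA in the rises was not tested.

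Within each arm the same step was fitted with 2 arrays per hour. In SHAM 20 probe sets fell (0.377%) and 1 rose (0.0189%), and all 20 were among the 22 of both arms together. The SHAM step is part of the step over both arms, so that overlap is largely built in. The SHAM count depended on single arrays, with 9 falls without 1 h replicate 1, the array of the other run, and 48 without 3 h replicate 1. In TOL 0 fell (0%) and 0 rose (0%) by limma, with a smallest adjusted p of 0.0516, while 116 were lower and 166 higher at an unadjusted p under 0.05. Without single arrays the TOL counts ranged from 0 to 7 falls and from 0 to 18 rises.

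The difference between the arms' steps was itself tested and 0 probe sets passed (0%), with a smallest adjusted p of 0.999844 and 171 at an unadjusted p under 0.05. All 32 probe sets called over both arms had the same sign in both arms. They were picked on the mean of the arms' steps, which favours equal signs, so this does not test whether the arms agree. The SHAM step was the larger one in 20 of the 22 falls, with medians of -0.86 in TOL and -1.45 in SHAM. In 9 of the 22 the arm difference had an unadjusted p under 0.05, and none passed adjustment. For the 10 rises the medians were 0.78 in TOL and 0.82 in SHAM. All 4 TOL arrays of the step were hybridised on the second day and all 4 SHAM arrays on the first, so arm and day cannot be told apart. The ratio of 3′ to 5′ Gapdh signal, a sign of RNA quality, was 1.14 to 1.23 on the TOL arrays and 0.994 to 1.02 on the SHAM arrays, and that of actin 1.39 to 1.49 on the TOL arrays and 1.49 to 1.67 on the SHAM arrays. Within TOL the actin ratio was 1.469 and 1.489 at 3 h against 1.393 and 1.389 at 1 h, and that of Gapdh 1.193 and 1.231 against 1.139 and 1.192. Within SHAM the hours overlapped for both ratios. The part of day and RNA quality in the arm difference and in the TOL step was not tested. Fos X06769cds_at, for example, stepped by -1.66 in TOL and -2.94 in SHAM, and Klf4 L26292_g_at by -1.36 in TOL and -2.04 in SHAM.

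**Figure D4:**
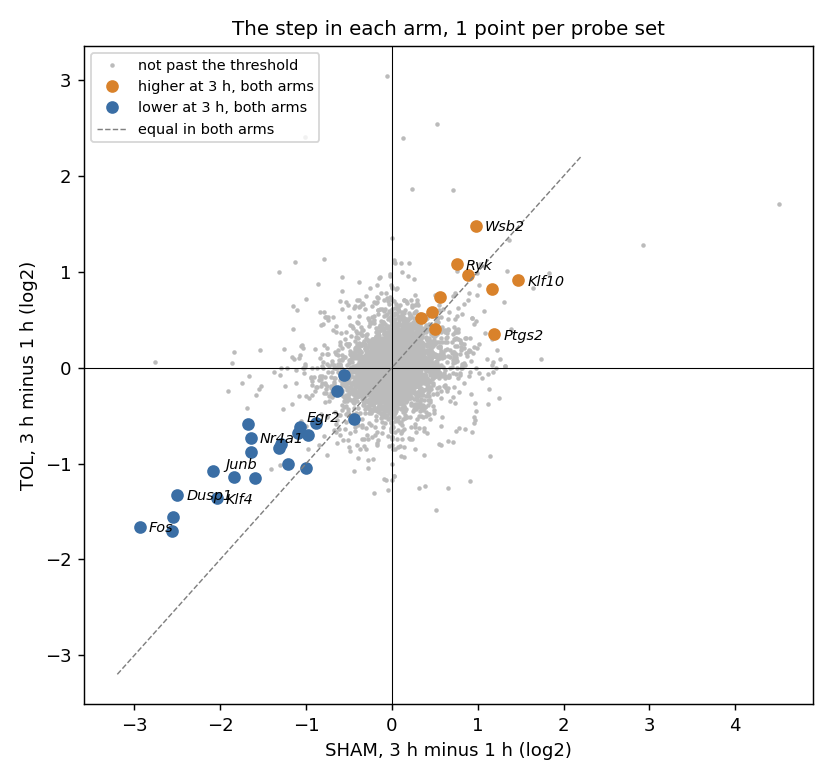
Log2 step, 3 h minus 1 h, in TOL (vertical) against SHAM (horizontal), with 1 point per tested probe set, blue for the 22 falls, orange for the 10 rises, grey for the rest and a dashed line of equal steps. The falls lie below 0 and the rises above 0 in both arms, and 20 of the 22 falls have the larger step in SHAM. The choice on the mean of both arms favours equal signs.

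The smallest unadjusted limma p for the arm difference belonged to Zup1 (7.86e-04), Nvl (9.96e-04), Slco1a4 (0.00147), Ndufv3 (0.00156) and Fgfr1op2 (0.00278), and each of these genes had an adjusted p of 0.999844. Zup1, a ubiquitin peptidase, stepped by -0.52 in TOL and 0.96 in SHAM. Slco1a4, an organic anion transporter of the blood-brain barrier, stepped by 0.19 in TOL and -1.26 in SHAM. Ndufv3, a complex I subunit, stepped by -0.92 in TOL and 1.14 in SHAM. None of them counts as different between the arms.

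The calls draw on the spread of all 24 arrays. In a fit of the 8 arrays alone, with the arm as a block, 0 probe sets passed in either direction (smallest limma adjusted p 0.0812), while 195 were lower and 223 higher at an unadjusted p under 0.05. All 22 falls and all 10 rises had an unadjusted p under 0.05 there. Their estimates are the same in both fits by design, so their direction could not change. Without normalisation the counts over both arms were 16 falls and 0 rises, beside 22 and 10.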

How the data were processed

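Total RNA of rat hippocampus was measured on 24 Affymetrix rat genome arrays (U34, set A), 2 for each of 12 groups. The deposited intensity values are linear and background-subtracted, since many lie below 0 in the authors' files, with 1 value per probe set and array. Neither the labels nor the file headers used here name the software or a scaling step. The members and gene lists were chosen with earlier results of these data known.

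The arrays were quantile normalised, floored at a noise level of 41.2 units and taken to log2. That level is the 99th percentile of all values of the 1957 probe sets with a mean of 0 or less. Of 8799 probe sets, 59 are controls and were dropped. Testing needed values over the noise level on both arrays of some group, and 5299 probe sets of 3224 genes met this. In the platform annotation 7006 probe sets had 1 gene symbol, 308 several and 1426 none. Each gene was represented by its brightest tested probe set unless another is named. Where all arrays of an hour were below noise, the fold was taken against the noise level and is a lower bound.

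A mean per group was fitted to all 24 arrays with limma 3.58.1 in R 4.3.3 (12 residual degrees of freedom, 2.79 prior), and the spread was pooled over the groups. The contrasts were the step, 3 h minus 1 h, as the mean of both arms, the step in each arm and the difference of the steps. Tests are two-sided with Benjamini-Hochberg adjustment over the tested probe sets. The methods were tested on simulated data. Motifs were searched and figures drawn in Python 3.11.15 with numpy 2.4.6 and matplotlib 3.10.9.

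Named genes were up to 15 largest falls and 15 largest rises that passed in both arms' mean and separated the hours within each arm, up to 3 called genes of each list and direction, the 5 smallest p of the arm difference, and any measured member of the 6 early and stress lists. Replicate numbers did not pair the arrays (correlations of deviations -0.16 to 0.08). Alternatives were the scaling, the floor, the filter, the arrays in the fit, the moderation, and the replicate, day or run as a block. Fluidics runs were inferred from recorded times within 5 minutes of each other, which gave 6 runs over 2 days. The number of arrays limits the precision. No array held the same values as another.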

Additional observations from a re-analysis of the deposited data

How the results depend on the processing

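No named probe set that was called changed direction under any alternative tried. The filters, the moderation, the 8 arrays alone and the replicate or day as a block leave the estimates unchanged by design. So does leaving out arrays of other hours. The direction could change only under the other alternatives. The medians of 9 of the 28 gene lists, none of them an early list, changed sign on the deposited values without scaling and 0 did with each array scaled by its median. The counts were less firm. With limma's step over both arms, the main counts are 22 falls and 10 rises, those in SHAM 20 and 1, those in TOL 0 and 0, the difference of the steps 0, and the listed genes 4 lower and 2 higher. On the deposited values without scaling there were 0 rises over both arms, 13 falls and 0 rises in SHAM, 2 falls in TOL, and 2 listed genes lower and 0 higher. With each array scaled by its median there were 2 rises in SHAM and 1 fall in TOL. A floor at the 25th percentile (3.67 units) gave 1 rise over both arms, 12 falls in SHAM, 1 fall in TOL, 1 call for the difference and 0 listed genes higher. A floor at 100 units gave 4 rises in SHAM, 7 falls and 2 rises in TOL and 1 call for the difference. Without a filter there were 13 falls and 2 rises in SHAM, 1 rise in TOL, 4 calls for the difference and 0 listed genes higher. Requiring all 4 arrays of an hour above the floor gave 2 rises in SHAM and 5 falls and 2 rises in TOL. The 8 arrays alone gave 0 falls and 0 rises over both arms, 1 fall and 0 rises in SHAM, 2 rises in TOL, 2 calls for the difference and 0 listed genes lower or higher, with fewer arrays behind the spread. The trended robust prior gave 2 rises in SHAM. The hybridisation day as a term gave 1 fall and 1 rise in TOL and 1 listed gene higher. The inferred run as a random block (correlation -0.08) gave 2 rises in SHAM and 5 falls and 2 rises in TOL. Both following alternatives were chosen after seeing the data: the run as a fixed term gave 5 falls and 0 rises in SHAM and cannot be fitted for TOL, and leaving out 4 arrays with an aborted fluidics record (TOL at 24 h and 48 h, none of the 8 arrays of the step) gave 3 rises over both arms and 1 listed gene higher. The cause of these moves was not tested.

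The replicate block gave 23 falls and 5 rises over both arms and 1 listed gene higher, and since the numbers did not pair the arrays it is given here only. Leaving out single arrays gave 15 to 35 falls and 3 to 23 rises over both arms, 9 to 48 falls and 0 to 28 rises in SHAM, 0 to 7 falls and 0 to 18 rises in TOL, 0 to 27 calls for the difference, and 1 to 6 listed genes lower and 0 to 5 higher. The 48 SHAM falls and the 27 calls for the difference came without SHAM 3 h replicate 1. A group left with 1 array is assumed to vary like the others. Of 3561 repeats over the named probe sets, 180 lost a call, 15 gained one in the same direction and 0 reversed a call of the main fit. The other 3366 were counted as the same, which includes any change of direction in a probe set not called in the main fit. Below the noise level of 41.2 units no order of levels can be read.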
